A study of Mus musculus with 6 samples.

Results

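Prox1, Lyve1, Mmrn1, Reln and Ccl21a are genes of lymphatic endothelial cells, and they were chosen by their symbols. All 5 were found among the 55359 genes of the table, and all 5 were among the 17728 genes with enough counts to be tested. Poly(A) RNA of lung tissue from C57 mice at E18.5 was sequenced as paired ends. Of the 6 libraries 3 carry the genotype label Prmt5 knockdown and 3 carry WT. The series text speaks of a mesenchymal knockout of Prmt5 tied to Dermo1, a gene also named Twist2, and the growth protocol of a knockdown in lung mesenchymal cells. Neither the Cre and Prmt5 alleles nor any allele shared with the WT embryos are named. Lymphatic endothelium is not a mesenchymal cell type, so it is not the cell that the series text names as targeted.

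Lymphatic vessels take up fluid and immune cells from the tissue and return them to the veins. Their lining arises largely from venous endothelium that switches on Prox1, a homeobox transcription factor needed to set and keep lymphatic identity, and it grows towards Vegfc, the ligand of the receptor Flt4 (VEGFR3). In mice, lymphatics drain fluid from the fetal lung before birth. Lyve1 encodes a surface receptor for hyaluronan, Mmrn1 a large secreted protein of endothelium and platelets, Reln the secreted glycoprotein reelin, and Ccl21a the chemokine that draws dendritic cells and T cells carrying Ccr7 into lymphatics.

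Ccl21a has near-identical copies nearby on chromosome 4, so how far reads can be told apart bears on its counts. In the GENCODE M21 transcripts (GRCm38) the coding sequence of 402 bases differs from each of Ccl21b, Ccl21d, Gm10591 and Gm13304 at 2 bases, an identity of 99.5%. With positions counted from the A of the start codon, the differences are T84A, which is synonymous, and C194T, which changes the encoded amino acid. In Ccl21a they lie in exons 2 and 3 of 4, at positions 42773747 and 42773543 of chromosome 4 in GRCm38. The stretches of 60 coding bases around them are shown for Ccl21a and for Gm10591, the copy with the most counts, with the differing base in capitals and coding positions 54 to 113 before 164 to 223.
Ccl21a: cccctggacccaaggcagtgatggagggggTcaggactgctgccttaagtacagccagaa
Gm10591: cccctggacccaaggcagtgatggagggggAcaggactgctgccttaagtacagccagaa
Ccl21a: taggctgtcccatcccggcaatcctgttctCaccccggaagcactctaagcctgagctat
Gm10591: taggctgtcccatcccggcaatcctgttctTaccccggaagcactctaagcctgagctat
Of the 253 stretches of 150 bases within the coding sequence, 194 (76.7%) cover at least 1 differing base. The exonic length of Ccl21a is 870 bases, and the part outside the coding sequence was not compared. Of 9 copy symbols looked up, only the 4 compared here were found. The table gave 3, 4 and 26 counts to the copies together in the libraries labelled Prmt5 knockdown 1, 2 and 3, and 1, 1 and 5 in WT 1, 2 and 3. Those 26 counts, 25 of them on Gm10591, were 9.12% of the sum with Ccl21a, and in the other libraries the share was 0.219% to 1.47%. How the authors treated reads that match several genes is not given in the sources used here, so the Ccl21a values are uncertain to that extent.

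The total counts per library were 14390202 to 19262837 under the Prmt5 knockdown label and 14383415 to 16358478 under the WT label. The targeted gene, Prmt5, stood at 39.6, 47.8 and 46.9 CPM (counts scaled to a common library size) in the knockdown-labelled libraries 1 to 3 and at 46.7, 47.3 and 48.3 CPM in WT libraries 1 to 3. Its log2 fold change was -0.08 (95% confidence interval -0.29 to 0.13, edgeR adjusted p = 0.682), so every direction given here rests on the labels alone. Lung identity was clear in each library, with 8576 to 10497 CPM of the surfactant gene Sftpc under the knockdown label and 7911 to 9810 CPM under the WT label. Libraries also differed in genes typical of other tissues, and whether this RNA came from other organs was not tested. Heart muscle genes summed to 4364, 12577 and 3512 CPM in knockdown-labelled libraries 1 to 3 and to 523, 635 and 3020 CPM in WT libraries 1 to 3. Rag1, which cuts receptor genes in developing thymocytes, was at 56.5, 117 and 1.69 CPM in knockdown-labelled libraries and 1.73, 0.212 and 68.1 CPM in WT.

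The comparison of the labels asks which lymphatic transcripts differ in the late fetal lung when Prmt5 is targeted. Prox1 had its 3 highest values under the knockdown label, while Lyve1 and Ccl21a had their 3 lowest there. Mmrn1 and Reln overlapped between the labels. None of the 5 passed the edgeR quasi-likelihood test after adjustment over all 17728 genes (0 of 5, against 0.0338% of all genes, 0.00564% higher and 0.0282% lower). Before adjustment 3 of 5, Prox1, Lyve1 and Ccl21a, had p under 0.05, against 17.0% of all genes, and DESeq2 called Prox1 and Lyve1 (2 of 5, against 4.82%). Groups that did not overlap were seen in 3 of 5, against 23.2% of all genes. For the gene lists below, the shares of all genes at an unadjusted p under 0.05 were 8.48% higher and 8.52% lower. In tissue RNA, fewer lymphatic cells and less RNA per lymphatic cell cannot be told apart.

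**Figure D1:**
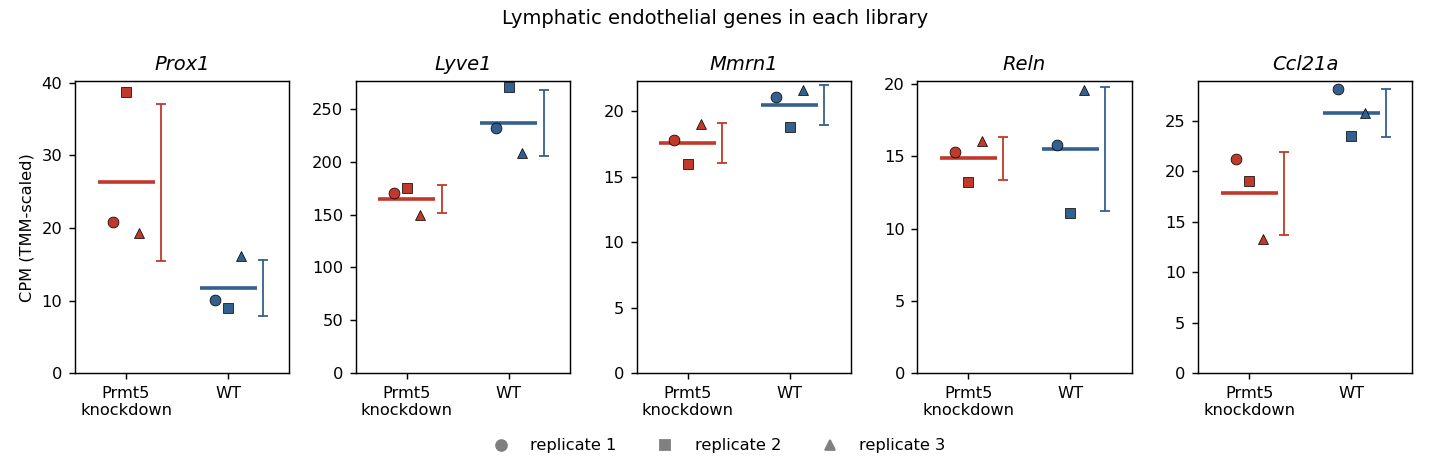
CPM of each gene by library, linear axis from 0, with the Prmt5 knockdown label left of WT; points are libraries (shape gives the replicate), horizontal lines are means and error bars SD (n = 3 each). Prox1 lay at 19.3 to 38.7 CPM under the knockdown label and 8.97 to 16.2 CPM in WT, and Lyve1 at 149.7 to 175 CPM and 209 to 270.1 CPM.

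Prox1 (ENSMUSG00000010175, chromosome 1, 189850232 to 189902911, minus strand in the table's coordinates) was at 20.9, 38.7 and 19.3 CPM in knockdown-labelled libraries 1 to 3, against 10.1, 8.97 and 16.2 CPM in WT libraries 1 to 3. Library 2 of the knockdown label stood apart at the top, and WT 3 was the highest of its group. The log2 fold change was 1.16 (2.23-fold) with a standard error of 0.33 and a 95% interval of 0.37 to 1.94 (edgeR adjusted p = 0.185). Without knockdown-labelled library 2 it was 0.77 (edgeR adjusted p = 0.255). DESeq2 placed it past the threshold at the same size (log2 fold change 1.16, adjusted p = 0.0106).

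Prox1 is also made by heart muscle cells, and the order of libraries by Prox1 was that of the heart muscle list but for 2 swaps, of knockdown-labelled libraries 1 and 3 and of WT 1 and 2. The list, 14 genes all tested and none at 0 in every library, had a mean log2 CPM of 6.77, 8.77 and 6.79 in knockdown-labelled libraries 1 to 3 and of 3.46, 4.01 and 6.35 in WT libraries 1 to 3. Both measures were highest in knockdown-labelled library 2, had WT 3 as the highest WT library, and had WT 1 and WT 2 at the bottom. All 14 had positive log2 fold changes, and the list median was 2.20, against 0.01 over all genes. An unadjusted p under 0.05 was seen for 11 (against 8.48% of all genes higher), and edgeR called 0 (against 0.00564%). Its most abundant genes, Myh6 and Actc1, which encode a heart myosin and cardiac actin, were at 1139.9 to 3451 and 800.4 to 2212 CPM under the knockdown label and at 86.95 to 959 and 117 to 597 CPM in WT. With the list's level as a covariate the log2 fold change of Prox1 was 0.15 (edgeR adjusted p = 0.902). That covariate itself did not overlap between the labels, so heart muscle level and label cannot be told apart here. The part of heart muscle RNA in the Prox1 difference was not tested. In the same fit Lyve1 was at -0.43 and Ccl21a at -0.58 (edgeR adjusted p = 0.686 and 0.712), and none of the 5 had an unadjusted p under 0.05.

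Other cells that make Prox1 gave less even values. Neuroendocrine markers (8 of 8 tested, none at 0 in every library) summed to 16.0 to 90.7 CPM under the knockdown label and 9.82 to 48.8 CPM in WT, with 0 called and 3 higher at an unadjusted p under 0.05. Chga and Calca, a granule protein and a peptide precursor, led it at 0.566 to 33.0 and 4.88 to 24.0 CPM under the knockdown label and at 0.141 to 28.5 and 3.39 to 8.40 CPM in WT. The highest of these, 90.7 CPM, was in knockdown-labelled library 3, where Prox1 was lowest of its group. The liver list summed to 7.47, 10.3 and 144 CPM in knockdown-labelled libraries 1 to 3 and to 26.4, 10.7 and 6.54 CPM in WT. Alb and Ahsg, which encode serum albumin and fetuin, led it, both highest in knockdown-labelled library 3 (72.1 and 23.7 CPM). The part of these cells in the Prox1 difference was not tested. On the strand opposite Prox1 the table lists Prox1os with 2, 6 and 5 counts under the knockdown label and 1, 0 and 4 in WT, at most 6 counts beside the 127 to 547 of Prox1.

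Lyve1 (ENSMUSG00000030787, chromosome 7, 110449814 to 110462446, minus strand) was the most abundant of the 5. It stood at 169.9, 175 and 149.7 CPM in knockdown-labelled libraries 1 to 3, against 232, 270.1 and 209 CPM in WT libraries 1 to 3. Every knockdown-labelled library lay below every WT library, with a gap between 175 and 209 CPM. The log2 fold change was -0.52 (standard error 0.11, 95% interval -0.79 to -0.25, edgeR adjusted p = 0.136), and DESeq2 placed it past the threshold (-0.52, adjusted p = 0.00141). The general endothelium list was lower too, with 15 of 15 log2 fold changes negative and a median of -0.41. Of the 15 genes 12 had an unadjusted p under 0.05 (against 8.52% of all genes lower), and 0 were called (against 0.0282%). Its summed level was 2656 to 3308 CPM under the knockdown label and 3751 to 4241 CPM in WT, and its most abundant genes Cdh5 and Pecam1, both of endothelial junctions, were at 456 to 637 and 417 to 518 CPM and at 714 to 816 and 588 to 669 CPM.

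Some genes of other lung cells were lower too, but the lung tissue list as a whole was not. Of its 8 genes 6 had positive and 2 negative log2 fold changes, and the median was 0.02 (0.01 over all genes). Of the 8 genes 0 were called, and an unadjusted p under 0.05 was seen for 1 higher and 2 lower. Ager, a receptor of alveolar type 1 cells, was at 976, 1009 and 850.2 CPM in knockdown-labelled libraries 1 to 3, against 1530, 1349 and 1301 CPM in WT libraries 1 to 3, with no overlap (log2 fold change -0.56, edgeR adjusted p = 0.116). Tbx4, a T-box factor of lung mesenchyme, averaged 153 ± 14.3 and 206 ± 22.0 CPM (-0.43, edgeR adjusted p = 0.154), and Foxj1, of ciliated cells, 90.9 ± 2.80 and 69.8 ± 9.22 CPM (0.38, edgeR adjusted p = 0.172; SD, n = 3 each). The part of a different make-up of the tissue in the Lyve1 values was not tested.

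Tissue macrophages can carry Lyve1 as well. The macrophage list, 13 genes of which 12 were tested, summed to 209 to 262 CPM under the knockdown label and 217 to 223 CPM in WT, which overlapped, with 0 called and 2 higher at an unadjusted p under 0.05. Mrc1, a mannose receptor, and F13a1, a clotting factor subunit, were the most abundant of the list, at 31.4 to 47.1 and 43.5 to 55.4 CPM under the knockdown label and 45.5 to 49.4 and 38.3 to 52.4 CPM in WT. The ligand side was also mixed. Of 9 genes of hyaluronan synthesis, binding and breakdown 0 were called, while 2 higher ones and 4 lower ones had an unadjusted p under 0.05, and the median log2 fold change was -0.33. Cemip and Cemip2, which act in hyaluronan breakdown, averaged 10.6 ± 2.53 and 89.8 ± 19.7 CPM under the knockdown label against 20.4 ± 4.38 and 121 ± 4.30 CPM in WT (SD, n = 3 each). The synthases Has1 and Has2 averaged 2.53 ± 0.550 and 4.52 ± 1.45 CPM against 1.37 ± 0.155 and 2.82 ± 0.355 CPM in WT.

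Ccl21a (ENSMUSG00000094686, chromosome 4, 42772860 to 42773993, minus strand) was at 21.2, 19.0 and 13.3 CPM in knockdown-labelled libraries 1 to 3, against 28.2, 23.4 and 25.8 CPM in WT libraries 1 to 3. The groups did not overlap, and knockdown-labelled library 3 was the lowest. The log2 fold change was -0.54 (standard error 0.18, 95% interval -0.96 to -0.11, edgeR adjusted p = 0.219). Without knockdown-labelled library 3 it was -0.36 (edgeR adjusted p = 0.320), and with the counts of the copies shown at the start added it was -0.50 (edgeR adjusted p = 0.204). Library 3 of the knockdown label, the lowest for Ccl21a, was also the one with the 26 counts on the copies.

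Thymus and lymphoid tissue make Ccl21a too. The 11 genes of that list, all tested, summed to 162, 288 and 18.1 CPM in knockdown-labelled libraries 1 to 3 and to 17.1, 13.9 and 191 CPM in WT. None was called, and 0 had an unadjusted p under 0.05. Prss16, a protease of thymic epithelium, was at 33.5, 51.7 and 1.59 CPM and at 0.803, 0.706 and 34.8 CPM. High and low libraries of this list occurred under both labels. Under the knockdown label Ccl21a was higher in libraries 1 and 2, where the list was high, than in library 3, where it was low, and in WT it was highest in library 1, where the list was low. The part of thymus RNA in the Ccl21a values was not tested. On the receptor side counts were scarce: Ccr7 had 43 counts over all 6 libraries and Ccl19, the other ligand, 7, and neither was tested. The scavenger receptor Ackr4 averaged 2.52 ± 0.669 CPM under the knockdown label and 2.12 ± 1.05 CPM in WT (log2 fold change 0.24, edgeR adjusted p = 0.820).

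Mmrn1 (ENSMUSG00000054641, chromosome 6, 60901960 to 60966362, plus strand) was at 17.8, 16.0 and 19.0 CPM in knockdown-labelled libraries 1 to 3, against 21.1, 18.8 and 21.6 CPM in WT libraries 1 to 3. Its groups overlapped by a narrow margin, between knockdown-labelled library 3 and WT 2. The log2 fold change was -0.22 (95% interval -0.47 to 0.04, edgeR adjusted p = 0.362). Megakaryocytes and platelets also make Mmrn1, and their list (12 genes, 10 tested, none at 0 in every library) summed to 34.7 to 45.1 CPM under the knockdown label and 38.9 to 48.1 CPM in WT, with 0 called and 0 at an unadjusted p under 0.05. Itga2b and Pf4, the platelet integrin subunit and a platelet chemokine, were the most abundant, at 11.2 to 12.9 and 7.64 to 9.68 CPM and at 12.8 to 14.1 and 6.24 to 9.82 CPM in WT.

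Relatives of Mmrn1 with the same EMI domain, and their endothelial partners, did not move as one. Emilin2, a matrix glycoprotein, averaged 30.3 ± 5.73 CPM under the knockdown label and 14.8 ± 2.07 CPM in WT (SD, n = 3 each), the smallest p of this list (log2 fold change 1.03, edgeR adjusted p = 0.0942). Emilin1, of elastic fibres and lymphatic anchoring, averaged 129.6 ± 3.56 and 160.1 ± 11.4 CPM. The endothelial lectin-like receptors Cd93 and Clec14a averaged 347 ± 58.2 and 129.8 ± 13.4 CPM under the knockdown label and 505 ± 18.8 and 163 ± 11.3 CPM in WT. Clec14a is also on the general endothelium list. Of the 6 genes 0 were called, and 1 higher and 3 lower ones had an unadjusted p under 0.05.

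Reln (ENSMUSG00000042453, chromosome 5, 22089452 to 22549700, minus strand) was at 15.3, 13.2 and 16.1 CPM in knockdown-labelled libraries 1 to 3, against 15.8, 11.1 and 19.6 CPM in WT libraries 1 to 3. The WT libraries held both the lowest and the highest value. The log2 fold change was -0.06 (95% interval -0.56 to 0.44, edgeR adjusted p = 0.922), an interval that includes the -0.52 of Lyve1. Without WT 3 it was 0.15 and without knockdown-labelled library 2 it was 0.02. Neurons also make reelin, and the neuron and glia list (8 genes, 7 tested) summed to 18.3 to 78.6 CPM under the knockdown label and 13.8 to 24.2 CPM in WT, with 0 called and 4 higher at an unadjusted p under 0.05. Tubb3, a neuronal tubulin and among its most abundant genes, was at 3.40 to 19.3 CPM under the knockdown label and at 1.41 to 3.78 CPM in WT. The part of such cells in the Reln values was not tested.

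Of 9 genes of reelin signalling 0 were called and 3 were lower at an unadjusted p under 0.05. The integrin subunit Itga3, the kinase Src and the adaptor Crk averaged 159 ± 14.6, 99.0 ± 5.99 and 148 ± 2.79 CPM under the knockdown label, against 227 ± 28.5, 121 ± 7.75 and 165 ± 2.73 CPM in WT (SD, n = 3 each). The reelin receptor Lrp8 averaged 4.20 ± 1.04 and 1.98 ± 1.45 CPM (log2 fold change 1.07, edgeR adjusted p = 0.326). Itga3, Src and Crk act in many cell types of the lung beside the lymphatics.

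Per length of transcript, the order of the levels was nearly the same in all libraries. On the FPKM scale (counts per exonic length and library total) Lyve1 averaged 56.5 ± 3.92 under the knockdown label and 80.5 ± 9.83 in WT, Ccl21a 20.5 ± 4.60 and 29.4 ± 2.77, Mmrn1 3.01 ± 0.304 and 3.47 ± 0.282, Prox1 3.12 ± 1.22 and 1.39 ± 0.473, and Reln 0.630 ± 0.0721 and 0.650 ± 0.185 (SD, n = 3 each). The order Lyve1, Ccl21a, Mmrn1, Prox1, Reln held in all but knockdown-labelled library 2, where Prox1 stood above Mmrn1. Mmrn1 and Prox1 were therefore neighbours whose means did not differ beyond their spread under the knockdown label. The ratio of the Lyve1 to the Ccl21a level per length was 2.39, 2.74 and 3.36 in knockdown-labelled libraries 1 to 3 and 2.45, 3.43 and 2.41 in WT libraries 1 to 3, which overlapped. That of Mmrn1 to Prox1 was 1.22, 0.592 and 1.41, against 2.99, 3.00 and 1.91 in WT, with no overlap.

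Because the general endothelium list was lower under the knockdown label, each gene was also set against it within a library, as its log2 CPM minus the mean log2 CPM of that list. Lyve1 then stood at 0.16, -0.02 and 0.05 in knockdown-labelled libraries 1 to 3, against 0.05, 0.39 and 0.07 in WT libraries 1 to 3, so its groups overlapped on this scale. The difference was -0.11 for Lyve1 and -0.14 for Ccl21a (exact permutation test, two-sided, p = 0.6 for each), and 0.19 for Mmrn1 and 0.39 for Reln (exact p = 0.4 and 0.2). For Prox1 it was 1.54, with values of -2.85, -2.19 and -2.90 against -4.45, -4.50 and -3.61 in WT, higher in 3 of 3 libraries (exact p = 0.1, the smallest that 3 against 3 libraries can give, and 0.5 after Benjamini-Hochberg adjustment over the 5 genes). When edgeR scaled the libraries to that list, which moved the median log2 fold change of all genes to 0.43, Prox1 had a log2 fold change of 1.52 (edgeR adjusted p = 0.0258, with 30.0% of all genes called higher), Lyve1 -0.11 and Ccl21a -0.13.

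**Figure D2:**
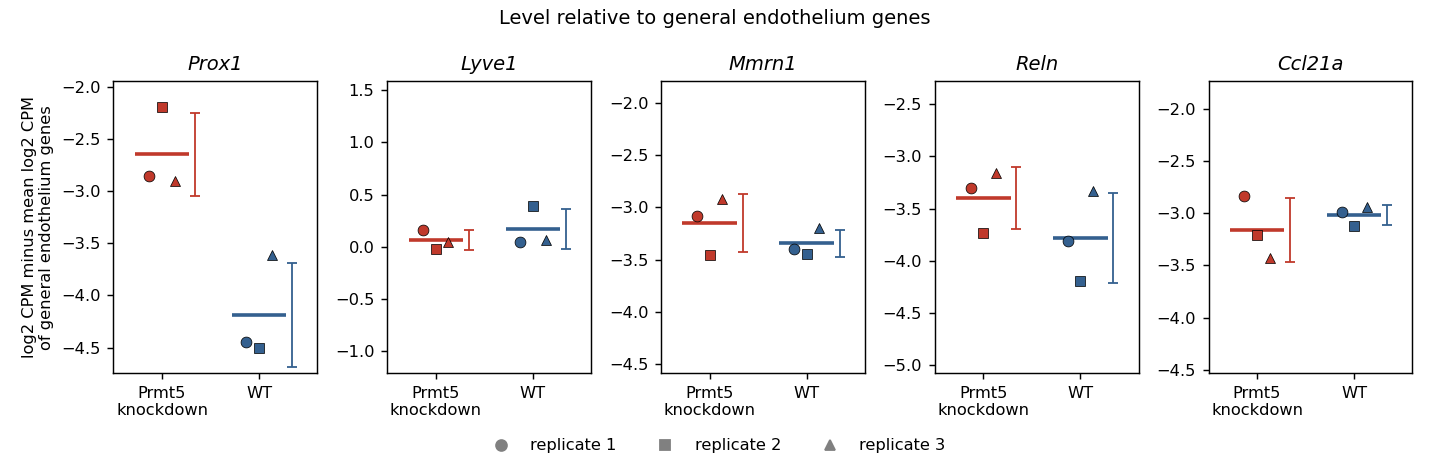
Log2 CPM of each gene minus the mean log2 CPM of 15 general endothelium genes, by library, with the Prmt5 knockdown label left of WT; each panel spans the same number of log2 units, lines are means and error bars SD (n = 3 each). Prox1 alone of the 5 has groups that do not overlap on this scale, and Lyve1 differs by -0.11 between the means. The share of all genes without overlap on this scale was not computed. The list was itself lower under the knockdown label (median -0.41), which moves unchanged genes up here. With edgeR scaled to the list, the median log2 fold change of all genes was 0.43.

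The other genes of lymphatic development were taken from 3 lists with 41 genes, all tested. Of these 0 were called by edgeR, and an unadjusted p under 0.05 was seen for 7 higher and 14 lower (against 8.48% and 8.52% of all genes), and the median log2 fold change was -0.17. Groups did not overlap in 6 higher genes and 12 lower ones (against 10.8% and 12.4% of all genes). DESeq2 called 3 higher and 11 lower (against 2.10% and 2.72%). With any single library left out edgeR again called 0 of the 41. Over all genes those fits called only 0 to 13 higher and 0 to 4 lower, so they say little about the 41. Scaled to the general endothelium list, the balance moved to higher genes, both here and over all genes. There edgeR called 13 higher and 1 lower (against 30.0% and 0.186% of all genes). An unadjusted p under 0.05 was seen for 17 higher and 1 lower of the 41, against 9248 and 74 of all 17728 genes. The median was 0.25, below the 0.43 of all genes.

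The growth signals had the lowest median of the 3 lists, -0.41, which was also that of general endothelium. Of its 15 genes 12 were negative and 10 of these had an unadjusted p under 0.05 (against 8.52% of all genes lower). Scaled to general endothelium the median was 0.0039, and 3 higher genes and 1 lower gene had an unadjusted p under 0.05 (against 9248 and 74 of all 17728 genes). Svep1, a matrix protein needed for lymphatic remodelling in mice and zebrafish, was at 123, 136 and 118 CPM in knockdown-labelled libraries 1 to 3, against 228, 210.2 and 200.5 CPM in WT libraries 1 to 3 (log2 fold change -0.76, standard error 0.08, edgeR adjusted p = 0.0671). Adamts14, a relative of the protease that processes Vegfc, was at 27.6, 25.1 and 25.0 CPM against 39.2, 43.8 and 39.9 CPM (-0.66, edgeR adjusted p = 0.0775). Both lay well apart between the labels, and without a filter on low counts both passed the threshold (against 0.150% of all genes called lower). Svep1 was also the gene called lower with scaling to endothelium. Tie1, an orphan receptor of blood and lymphatic endothelium that is also on the general endothelium list, averaged 189.7 ± 17.6 and 272 ± 17.3 CPM (SD, n = 3 each). The ligand Vegfc itself had 10.4, 11.9 and 11.9 CPM against 16.3, 15.9 and 16.5 CPM in WT, and its receptor Flt4 averaged 51.4 ± 9.00 and 67.7 ± 4.58 CPM (edgeR adjusted p = 0.136 and 0.215).

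The fate regulators had a median of 0.03, with an unadjusted p under 0.05 for 3 higher genes and 1 lower gene of 12. Foxc1 and Foxc2 are forkhead factors, and Foxc2 is needed for lymphatic valves. Foxc2 was at 6.42, 3.89 and 5.23 CPM in knockdown-labelled libraries 1 to 3, against 0.803, 2.47 and 2.50 CPM in WT libraries 1 to 3 (log2 fold change 1.43, edgeR adjusted p = 0.198). Foxc1 was at 9.32, 10.5 and 38.5 CPM against 3.34, 4.45 and 6.67 CPM (2.02, edgeR adjusted p = 0.191). Its highest value was in knockdown-labelled library 3, the library with the highest sums of the liver, neuroendocrine, and neuron and glia lists. Foxc1 also did not overlap between the labels, and the part of such cells in its values was not tested. Gata2, a zinc finger factor of lymphatic valves, averaged 63.5 ± 14.2 and 83.5 ± 9.35 CPM, and Tbx1, a T-box factor, 36.0 ± 5.14 and 29.0 ± 2.91 CPM.

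Surface and junction genes had a median of 0.26, which was -0.20 when the fit held the heart muscle level and 0.0041 without knockdown-labelled library 1. An unadjusted p under 0.05 was seen for 4 higher and 3 lower genes of 14. Those lower were Gja4, a connexin (30.3 ± 3.31 and 42.9 ± 3.88 CPM), the scavenger receptor gene Stab1 (124 ± 5.32 and 154 ± 3.18 CPM) and Cldn5, a claudin that is also on the general endothelium list (118 ± 10.1 and 159 ± 19.7 CPM, SD, n = 3 each). Cldn11, a claudin of lymphatic valves, averaged 3.00 ± 0.160 CPM under the knockdown label and 1.62 ± 0.335 CPM in WT (log2 fold change 0.89, edgeR adjusted p = 0.174). Pdpn, which encodes the lymphatic marker podoplanin and is strong in alveolar type 1 cells too, averaged 60.5 ± 12.5 and 78.3 ± 17.3 CPM, and its groups overlapped.

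**Figure D3:**
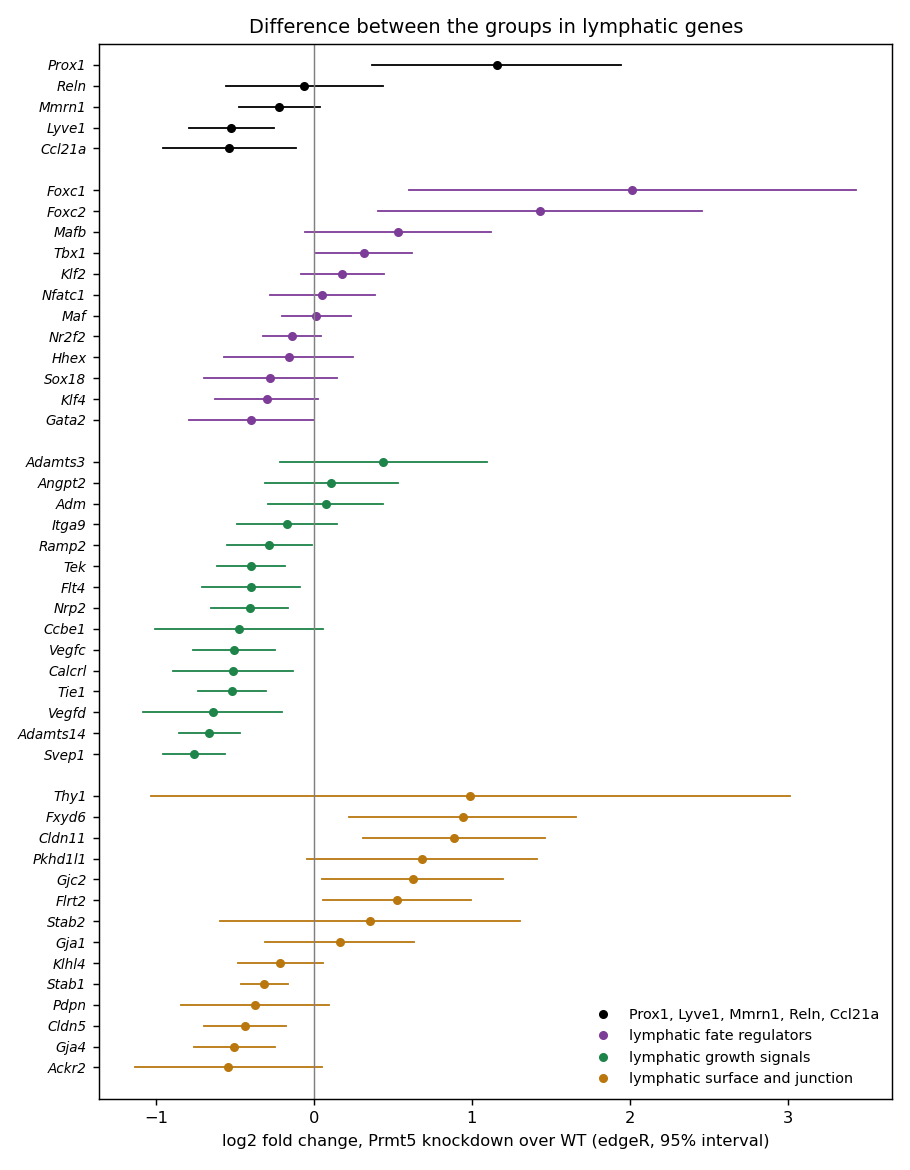
Log2 fold change of the Prmt5 knockdown label over WT with its 95% interval (edgeR, n = 3 each) for the 5 genes and the 41 further lymphatic genes, coloured by list. Prox1 has the highest estimate of the 5 genes (1.16), and its interval overlaps that of Reln. With heart muscle level as a covariate the Prox1 estimate was 0.15. Of the growth signals 12 of 15 lie below 0 (their median of -0.41 was 0.0039 with scaling to general endothelium). No gene passes the adjusted threshold.

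**Figure D4:**
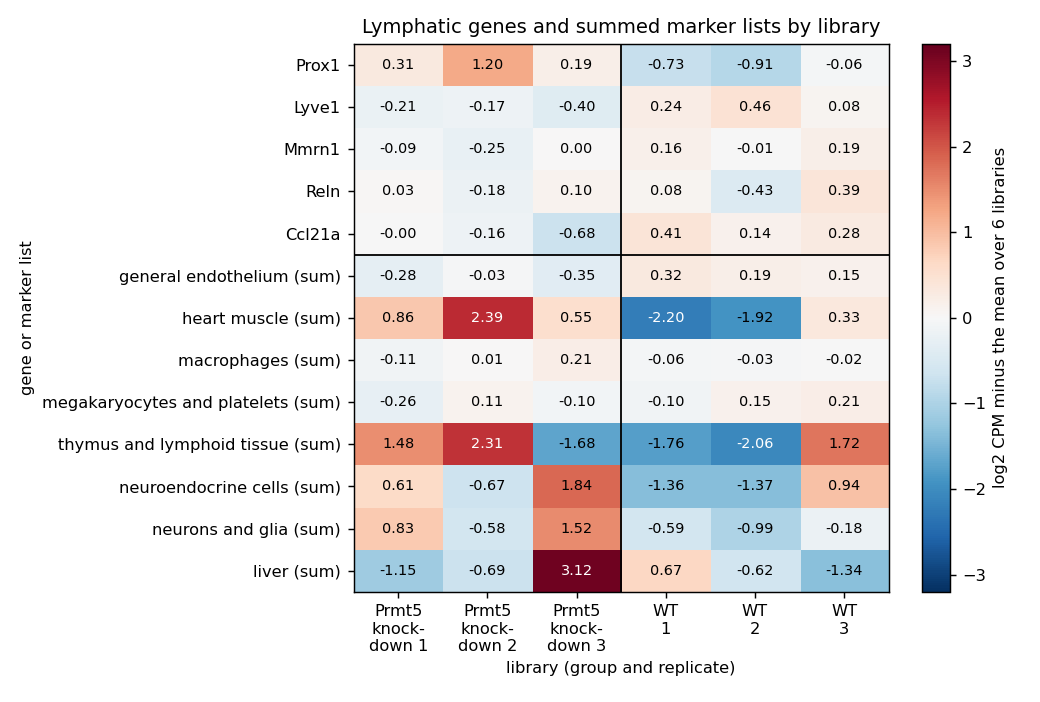
Log2 CPM minus the mean over 6 libraries, for each of the 5 genes and for the summed CPM of 8 marker lists, with knockdown-labelled libraries left of WT; colour and printed value give the same quantity. Prox1 and heart muscle are both highest in knockdown-labelled library 2 (1.20 and 2.39), while thymus genes are high in knockdown-labelled libraries 1 and 2 and in WT 3.

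For each gene the 3 most similar patterns were sought among 14353 other tested genes with a mean of at least 1 CPM, by the largest difference in any library between the log2 values after each gene's own mean was subtracted. For Prox1 these were Atp2a2, the calcium pump of heart and other muscle, Armh4 and Spsb4, which stayed within 0.16, 0.17 and 0.18 log2 units of it in all 6 libraries. Atp2a2 was at 647, 1186 and 561 CPM in knockdown-labelled libraries 1 to 3 and at 293, 310.1 and 499 CPM in WT libraries 1 to 3. Lyve1 was closest to AA386476, Notum, which encodes an enzyme that inactivates Wnt proteins, and Clec12b (0.08 to 0.09), and Ccl21a to Unc13d, Clic5 and Gprin3 (0.10 to 0.11). Mmrn1 was closest to Ppie, the DNA methyltransferase gene Dnmt3b and Egfr, the epidermal growth factor receptor gene (0.05 to 0.07), and the genes closest to Reln included Snrpert and Rps6ka6 (0.11 and 0.14). These likenesses describe the 6 libraries only.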

How the data were processed

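The authors deposited 1 table with whole-number gene counts of each library. Per the file headers it also holds FPKM values and exonic lengths, and each FPKM entry was the count over exonic length and library total, to within rounding. Per the submitters' processing notes HISAT2 2.0.1, HTSeq 0.6.1 and cutadapt 1.9.1 were used, with no roles stated. For the build, strand setting and multiply matching reads, the answer is not given in the sources used here. Table coordinates are printed as given, since only 1457 of 52083 shared genes have the same coordinates in GENCODE M21 (GRCm38). Ccl21a has the same ones, while Prox1, Lyve1, Mmrn1 and Reln do not. Sequences come from GENCODE M21, matched by gene identifier.

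edgeR 4.0.16 in R 4.3.3 was run on all counts as deposited (filterByExpr, TMM, group as only term, quasi-likelihood test, Benjamini-Hochberg adjusted p under 0.05 over 17728 genes). A standard error is the size of the fold change (log2) divided by the root of F. Log2 CPM used a prior count of 2. Alternatives were other scalings, no filter, DESeq2 1.42.0, limma 3.58.1 on log2(FPKM + 1), embryo sex or heart muscle level as a covariate, leaving out each library, and, added after the data were seen, the summed Ccl21a copies. A floor of 3 counts is 0.154 to 0.212 CPM. edgeR's common dispersion gave a biological variation of 21.8%. Fits were tested on simulated counts. Replicates are not stated to come from separate litters, so p-values reflect only how these samples vary, which may in part be technical variation. The labels give no embryo sex. Libraries with more than 100 counts of Ddx3y were taken as male, which were knockdown-labelled libraries 1 and 3 and WT 1. Replicate numbers follow accession order. The genes and lists were chosen with earlier results of these data known. Besides the 5 genes, those named are Prmt5, up to 4 with the smallest p per lymphatic list, the 2 most abundant per list of other cells, and the 3 most similar patterns; 2 genes under these rules are not reported here. Sftpc, Ager, Tbx4, Foxj1, Flt4 and Pdpn are markers, and Alb, Prss16, Ccr7, Ccl19 and Prox1os were added.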

Additional observations from a re-analysis of the deposited data

How the results depend on the processing

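Of 70 values of the 5 log2 fold changes under alternatives, 63 kept their direction and their side of the threshold. Prox1 passed it with DESeq2 (1.16) and with scaling to general endothelium genes (1.52), and Lyve1 with DESeq2 (-0.52). With the endothelium scaling 30.0% of all genes were called higher, and DESeq2 called 2.10% higher and 2.72% lower. With heart muscle level as a covariate the log2 fold change of Prox1 fell to 0.15 (edgeR adjusted p = 0.902), a value counted among the 63. Scaling to endothelium genes turned Mmrn1 to 0.21 and Reln to 0.36. Reln also turned to 0.15 without WT replicate 3 and to 0.02 without Prmt5 knockdown replicate 2, and had no limma value because its mean FPKM was under 1. With a library left out, log2 fold changes ranged from 0.77 to 1.46 for Prox1, -0.60 to -0.42 for Lyve1, -0.28 to -0.16 for Mmrn1, -0.25 to 0.15 for Reln and -0.67 to -0.36 for Ccl21a. Lyve1 relative to endothelium ranged from -0.17 to 0.0066, the upper end without WT replicate 2.

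Across all genes edgeR called 1 higher and 5 lower. The counts were 5320 and 33 with scaling to endothelium genes, 32 and 49 without a filter, 372 and 482 with DESeq2, 0 and 0 with embryo sex as a covariate (1350 and 1174 at an unadjusted p under 0.05) and 1 and 1 with heart muscle level. With a library left out they ranged from 0 to 13 higher and 0 to 4 lower. The cause of these changes was not tested. Pseudocounts of 0.1 and 0.5 changed no direction. No paired analysis was possible because the labels give no replicate number shared by the groups. Prox1 had 127 to 547 counts per library and Reln 157 to 314. Precision is also limited by the spread between libraries. The SD of CPM was 41.1% of the mean for Prox1 under the knockdown label and 32.8% in WT. For Reln it was 9.93% and 27.5%. Having 3 libraries per group limits the test.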
